A study of Mus musculus with 8 samples.

Results

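The cytosolic ribosomal protein genes were followed through a map of chromatin bound by RNA polymerase II (Pol II) in mouse liver. They were taken as the protein-coding RefSeq genes of assembly GRCm38 whose symbol starts with Rpl or Rps and a digit, with Rplp0, Rplp1, Rplp2 and Rpsa, without the Rps6k kinases and without symbols marked as pseudogenes. The rule found 89 of 21883 protein-coding genes. Of these, 77 encode the core proteins of the cytosolic ribosome, 46 in the large and 31 in the small subunit. The other 12 are copies, like-named genes or retrogenes, not all of which encode ribosomal proteins, such as Rps19bp1.

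The livers came from wild-type C57BL/6 mice of 3 to 6 months, kept in 12 h of light and 12 h of dark and fed freely. They were taken at ZT06 or ZT18, that is 6 or 18 h after lights on, and chromatin of 3 to 7 livers was combined for each precipitation with the Pol II antibody 8WG16. In ChIA-PET, DNA ends held in one precipitated complex are ligated through a linker and sequenced as a paired-end tag (PET), so each PET marks 2 places in the genome. There were 8 libraries in 3 experiments: experiments 1 (4 libraries) and 3 (2 libraries) were crosslinked with EGS and formaldehyde (dual), and experiment 2 (2 libraries) with formaldehyde alone (single).

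The deposited table names the experiment of each PET but no library or time of day, so each value below pools the day and night livers of 1 experiment and there is no replicate spread. Intervals are 95% and cover counting error only, and day was not compared with night. The experiments held 474478, 1438866 and 840210 PETs. Both ends lay on 1 chromosome within 8 kb in 22.5%, 6.23% and 14.8% of the PETs, and on different chromosomes in 73.1%, 88.7% and 80.2%. As a check of the tissue, the liver genes Alb, Apoa2, Tat and Ttr had a median of 59.7, 7.99 and 13.3 times the nuclear mean in experiments 1, 2 and 3. The chromatin was from whole liver, so a difference in the number of cells of a type and a difference in Pol II per cell cannot be told apart.

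The ribosome reads messenger RNA into protein. Its small subunit holds the messenger and the decoding site, and its large subunit joins the amino acids and releases the growing chain through a tunnel. Each core protein is needed in one copy per ribosome, except the paired stalk proteins, while the genes are scattered over the genome, each with its own promoter. These genes are short, are transcribed in nearly all cells, start at a cytosine within a run of pyrimidines (the terminal oligopyrimidine, or TOP, sequence through which their translation is controlled), and often carry small nucleolar RNAs (snoRNAs), guides of ribosomal RNA modification, in their introns.

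Pol II PET ends were dense over these genes in all 3 experiments, most so in experiment 1. For each gene the ends over its span and 2.5 kb either side were counted per kb and divided by the mean of the nuclear genome, which gives a relative density with 1 as the mean. The 89 genes had medians of 6.46, 1.74 and 2.97 in experiments 1, 2 and 3, beside 1.12, 1.10 and 1.30 for all protein-coding genes. Summed over their windows, with shared stretches counted once, they held 6.78 times the nuclear mean in experiment 1 (interval 6.45 to 7.12, from 1998 ends). Experiment 2 gave 1.82 (1.73 to 1.92, from 1631 ends), and experiment 3 gave 3.07 (2.91 to 3.23, from 1597 ends). The 3 intervals do not overlap.

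A relative density of 2 or more was reached by 79 of the 89 genes in experiment 1, where 25.2% of all protein-coding genes reached it. In experiment 2 it was reached by 31, against 4.9% of all genes. In experiment 3 it was reached by 72, against 21.1%. In every experiment it was reached by 28 of the 89 genes, against 4.24% of all genes, and 73 lay above the nuclear mean throughout, against 38.8%. Experiment 2 sets this joint count: without it, 68 genes reached 2 in both others.

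Most of these genes are short, and short coding genes as a whole were far less dense. The 39 ribosomal protein genes of up to 3 kb had medians of 6.42, 1.80 and 3.14, where the 3360 other coding genes of that length had 0.772, 0.880 and 0.755. The 41 genes of 3 to 6 kb had 6.97, 1.79 and 2.86, and the 2261 others of that length 1.47, 1.15 and 1.61. Within their own length class, 85, 73 and 81 of the 89 genes lay above the class median, and 47, 29 and 36 lay in the top 10%.

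**Figure D1:**
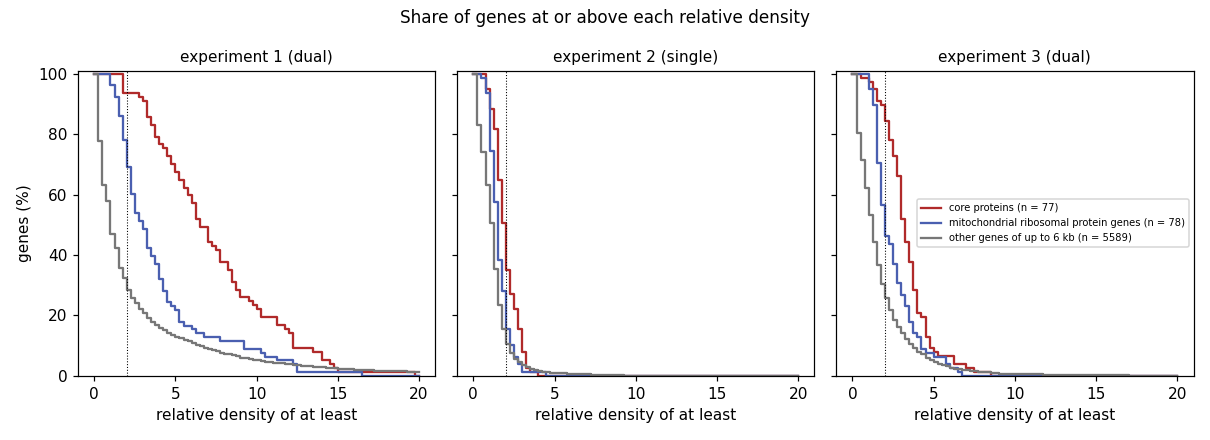
Share of genes (y axis, %) with at least the relative density on the x axis, for the 77 core ribosomal protein genes, the 78 mitochondrial ribosomal protein genes and 5589 other coding genes of up to 6 kb, 1 panel per experiment, with a dotted line at 2. At 2 the core genes stand at 93.5%, 35.1% and 84.4%, the mitochondrial ribosomal protein genes at 69.2%, 15.4% and 46.2%, and the other short genes at 28.4%, 10.4% and 25.9%.

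Summed over the windows, the excess was present in PETs within 8 kb, over 8 kb and between chromosomes. Of these 3 kinds it was highest within 8 kb. PETs with both ends within 8 kb gave 12.9 (11.7 to 14.1), 6.93 (6.00 to 7.96) and 4.84 (4.18 to 5.57) times their own mean in the 3 experiments. PETs between chromosomes gave 4.94 (4.65 to 5.25), 1.49 (1.41 to 1.58) and 2.74 (2.58 to 2.90). Among PETs within 8 kb, experiment 2 thus stood above experiment 3, while over all PETs it was the lowest. Experiment 2 has the smallest share of PETs within 8 kb. The mitochondrial ribosomal protein genes gave 4.98, 3.08 and 2.90 within 8 kb, 2.56, 1.34 and 2.05 over 8 kb, and 2.22, 1.19 and 1.78 between chromosomes.

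**Figure D2:**
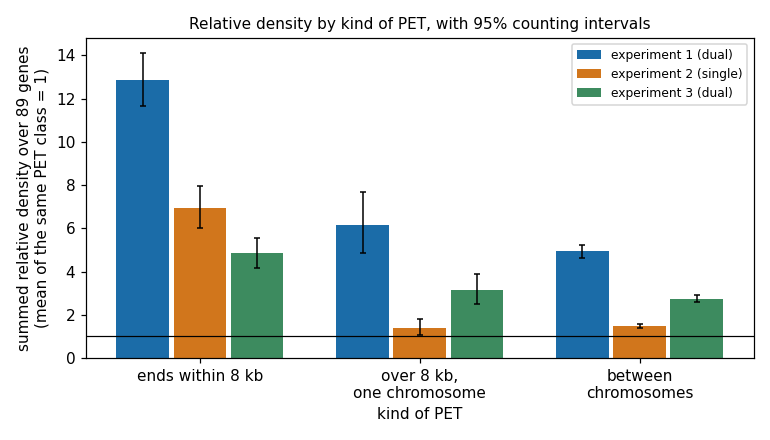
Summed relative density over the windows of the 89 genes (y axis, the mean of the same kind of PET is 1) for PETs with ends within 8 kb, over 8 kb apart on a chromosome, and between chromosomes, 1 bar per experiment with its 95% counting interval. In each experiment the bar for ends within 8 kb is the highest, at 12.9, 6.93 and 4.84.

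PET ends over these genes clustered at the start of transcription. For 56 core genes of 1 to 12 kb with a known strand, ends were counted in bins of 100 bp around the 5′ boundary of the annotated gene. The density in the last 100 bp before the start was 50.0, 12.0 and 25.1. In the first 100 bp of the gene it was 43.9, 9.95 and 21.1. By 600 to 699 bp inside the gene it was 6.13, 2.02 and 5.87. The 5775 other coding genes of that length had 13.5, 3.39 and 7.84 in the last 100 bp before the start and 15.2, 3.77 and 7.62 in the first 100 bp of the gene, so in experiments 1 and 2 their peak lay just inside the gene.

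Within 500 bp of the start, 53, 55 and 54 of the 56 genes had at least 1 end. The share of other coding genes with an end there was not counted, so these counts have no background. The stretches within 500 bp of the start make up 11.3% of the summed windows and held 42.7%, 42.0% and 39.9% of their ends. Rpl13a had the most ends there in experiments 1 (36) and 3 (19), and in experiment 2 it and Rpl7a, of the large subunit, both had 19.

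The start outweighed the end of the gene more than over other coding genes as a whole. Within 1 kb of the boundary, 49 core genes over 2 kb long had 3.74 PETs at the start for each at the end in experiment 1 (3.06 to 4.59), and 3.22 (2.63 to 3.97) and 3.31 (2.71 to 4.07) in the others. The 4974 other coding genes had 2.30 (2.24 to 2.36), 1.65 (1.62 to 1.69) and 2.04 (1.99 to 2.09). The intervals of the 2 groups do not overlap in any experiment. The 48 mitochondrial ribosomal protein genes among the others had 2.64 (2.12 to 3.31), 2.30 (1.85 to 2.88) and 2.88 (2.31 to 3.60), with intervals that overlap those of the core genes. With windows of 2.5 kb, which only 11 core genes can fill, the ratios were 1.84, 1.45 and 1.28 beside 1.57, 1.26 and 1.44. There the intervals overlapped in every experiment, and in experiment 3 the core genes had the lower ratio.

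**Figure D3:**
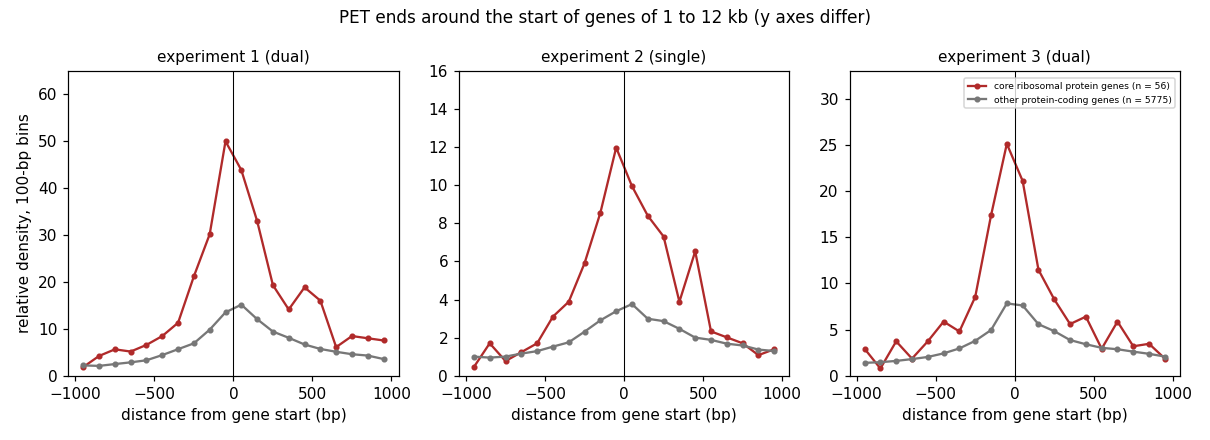
Relative density of PET ends (y axis, scale differs by panel) in 100-bp bins from 1 kb before to 1 kb after the gene start (x axis, bp) for 56 core ribosomal protein genes and 5775 other coding genes of 1 to 12 kb, 1 panel per experiment. The core genes peak in the bin just before the start, at 50.0, 12.0 and 25.1.

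RefSeq promoters of GRCm38.p6, 300 bases long and including the start, were matched for 57 of the 77 core genes. The sets printed here show what these promoters hold where the ends pile up. The first set shows the pyrimidine run at the start of 3 genes, from 60 bases before to 25 after it, with CTTTCC in capitals:
Rpl28 (chr7:4792905-4792989, plus strand): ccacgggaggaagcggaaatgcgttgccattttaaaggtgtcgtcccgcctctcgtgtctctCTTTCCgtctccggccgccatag
Rps10 (chr17:27635220-27635304, minus strand): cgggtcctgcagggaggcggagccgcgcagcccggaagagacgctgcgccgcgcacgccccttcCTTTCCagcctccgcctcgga
Rpl15 (chr14:18270962-18271046, minus strand): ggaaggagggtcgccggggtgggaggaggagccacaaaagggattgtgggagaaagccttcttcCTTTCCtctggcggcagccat

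CTTTCC within 5 bases before to 15 after the start, on the gene's strand, was found in 8 of 57 core genes (14.04%) and in 0.766% of all 17491 promoters. The 8 genes are Rpl13a, Rpl15, Rpl18, Rpl28, Rpl35, Rpl38, Rps10 and Rps27. Anywhere in the 300 bases on either strand it was in 45.6% of the core and 25.8% of all promoters, and the longer CTCTTTCC, which contains it, in 15.8% and 2.98%. A first base C followed by 3 pyrimidines was found at 12 of 57 core starts (21.1%) and at 3.17% of all starts. The annotated start base is that of the RefSeq transcript nearest the gene boundary, which need not be the base used most in liver.

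The second set shows CCGGAAG, the core of binding sites for ETS factors, in capitals in 2 of the densest genes, from 210 bases before to 25 after the start:
Rpl41 (chr10:128549144-128549378, minus strand): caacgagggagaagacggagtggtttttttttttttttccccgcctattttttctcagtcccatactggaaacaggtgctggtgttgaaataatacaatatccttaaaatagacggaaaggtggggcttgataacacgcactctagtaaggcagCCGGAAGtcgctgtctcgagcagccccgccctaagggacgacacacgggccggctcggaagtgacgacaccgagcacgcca
Rps18 (chr17:33955641-33955875, minus strand): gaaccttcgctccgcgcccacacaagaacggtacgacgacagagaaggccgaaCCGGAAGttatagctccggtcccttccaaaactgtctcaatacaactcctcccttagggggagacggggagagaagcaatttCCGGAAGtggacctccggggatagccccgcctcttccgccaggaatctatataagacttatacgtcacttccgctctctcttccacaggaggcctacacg

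On either strand, CCGGAAG was in 23 of 57 core promoters (40.4%) and in 11.9% of all promoters. The 23 core genes with it had median densities of 6.87, 1.53 and 3.14, and the 34 without it 5.88, 2.04 and 2.87, so neither set was denser in all 3 experiments. AAGATGG, the core of YY1 sites, was in 15.8% of the core and 6.35% of all promoters. TATAAA was in 10.5% and 13.3%.

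The third set shows CACGTG, the canonical E-box to which the clock factor pair of CLOCK and BMAL1 can bind, in capitals, since the series is about BMAL1:
Rpl13a (chr7:45128721-45128955, minus strand): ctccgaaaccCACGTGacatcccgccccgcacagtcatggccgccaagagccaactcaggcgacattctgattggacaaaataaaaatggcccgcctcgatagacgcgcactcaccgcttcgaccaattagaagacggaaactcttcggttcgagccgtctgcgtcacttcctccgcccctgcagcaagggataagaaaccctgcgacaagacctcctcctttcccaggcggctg
Rpl23 (chr11:97782415-97782649, minus strand): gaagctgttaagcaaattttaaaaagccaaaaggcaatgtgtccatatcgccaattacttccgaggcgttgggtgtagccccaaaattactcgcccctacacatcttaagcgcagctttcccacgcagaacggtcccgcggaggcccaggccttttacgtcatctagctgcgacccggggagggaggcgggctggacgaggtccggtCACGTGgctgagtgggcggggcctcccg
Rpl34 (chr3:130730374-130730608, minus strand): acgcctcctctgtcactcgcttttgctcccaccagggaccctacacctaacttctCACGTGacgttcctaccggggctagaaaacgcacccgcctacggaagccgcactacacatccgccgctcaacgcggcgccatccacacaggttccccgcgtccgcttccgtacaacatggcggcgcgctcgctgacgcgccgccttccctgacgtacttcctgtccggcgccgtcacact

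CACGTG was in 5 of 57 core promoters (8.77%), those of Rpl13a, Rpl14, Rpl19, Rpl23 and Rpl34, and in 7.91% of all promoters, which is nearly the same share. All of these matches are descriptions of the letters in the window and not sites shown to be bound here.

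Rpl13a, the gene of a large-subunit protein that also hosts 4 snoRNAs, and Rpl36al were the densest of the 89 by mean rank. Rpl13a (chr7:45125563-45128745) had 61, 36 and 46 ends in experiments 1, 2 and 3, which gave 19.7 (14.3 to 26.4), 3.83 (2.57 to 5.50) and 8.41 (5.92 to 11.6). Ends of neighbouring coding genes such as Flt3l that fall in the window are counted in these values.

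The next in order were Rpl27a, Rpl23a, Rps2, Rpl18, Rps18, Rpl41, Rplp0 and Rpl3l. Each of them has another coding gene in its window, whose ends there are counted too. Rpl27a (chr7:109519195-109522369), of the large subunit, had 13.9, 2.98 and 7.32. Rps2 (chr17:24718121-24721927), which lies at the messenger entry of the small subunit, had 13.8, 2.97 and 4.75. Rpl18 and Rpl41, both of the large subunit, had 14.5, 2.77 and 4.47, and 14.4, 2.44 and 5.18. Neighbours in this order had overlapping intervals, so the order of adjacent genes is not resolved at this depth. Genes further apart could differ: in experiment 1 the interval of Rpl13a (14.3 to 26.4) lay wholly above that of Rplp0 (6.25 to 13.6).

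The spread among the 77 core genes was only partly larger than counting error. A core gene had a median of 21, 17 and 18 ends in its window, and the highest value was 3.05, 2.16 and 2.72 times the core median. The interval lay wholly above the core median for 15, 13 and 6 genes and wholly below it for 11, 6 and 6. Over the 89 genes, Spearman's rho of density with experiment 1 was 0.621 for experiment 2 and 0.625 for experiment 3, and for these last 2 with each other it was 0.528. It is given as a description, since the genes of an experiment share its libraries and all experiments share gene length and base composition.

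**Figure D4:**
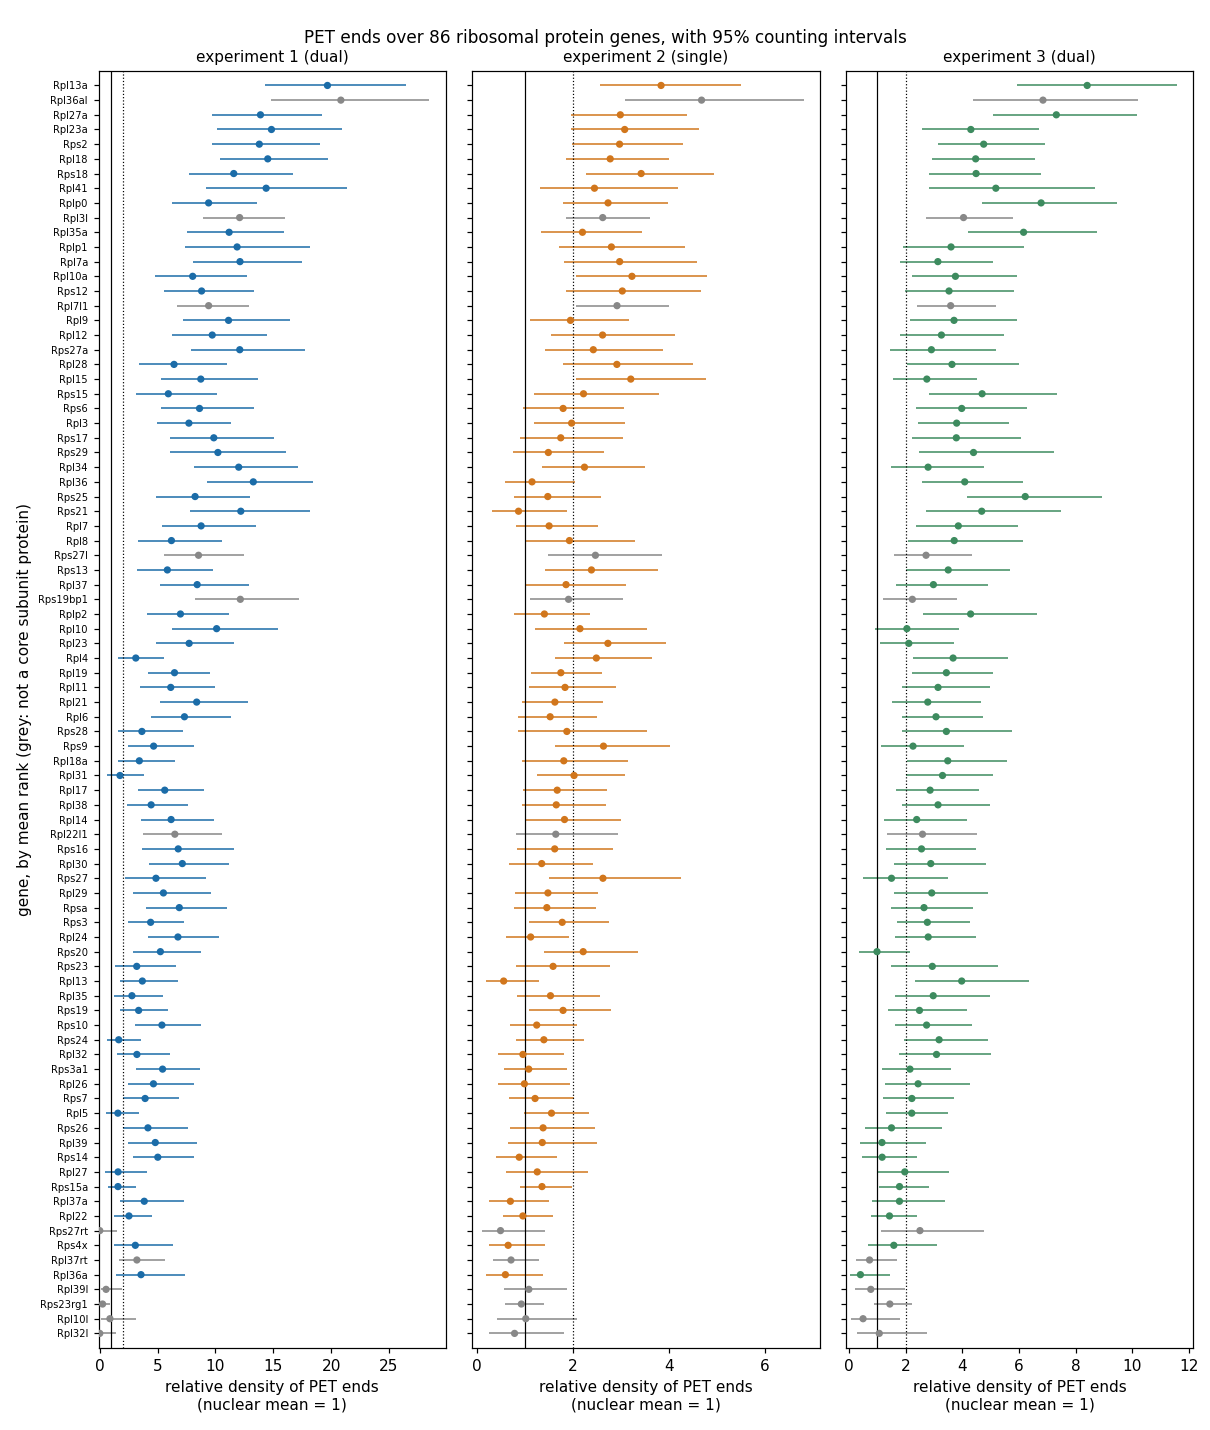
Relative density of PET ends (x axis, nuclear mean 1, scale differs by panel) for 86 of the 89 genes (y axis, by mean rank over the 3 experiments), 1 panel per experiment, with 95% counting intervals, a solid line at 1 and a dotted line at 2. Grey marks the 12 genes that are not core, of which Rpl36al is near the top and 6 of the 8 lowest rows are grey.

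Both subunits were dense, and the large one stood slightly higher. The 46 core genes of the large subunit had medians of 7.05, 1.83 and 3.14, and the 31 of the small subunit 5.84, 1.61 and 2.77. Summed over their windows, the large subunit gave 7.41 (6.93 to 7.92), 1.90 (1.77 to 2.04) and 3.39 (3.16 to 3.63), and the small subunit 6.19 (5.66 to 6.76), 1.75 (1.59 to 1.91) and 2.94 (2.67 to 3.22). The intervals were apart in experiment 1 and overlapped in the other 2.

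The 4 genes of the stalk, which recruits the translation factors with GTPase activity, and of its base had a median of 9.56, 2.67 and 3.95, above the core medians of 6.46, 1.77 and 3.09. At 2 or more were 4 of 4 genes in experiments 1 and 3 and 3 of 4 in experiment 2, beside 93.5%, 35.1% and 84.4% of the core genes and 25.2%, 4.9% and 21.1% of all genes. Rplp0, the base of the stalk, was the highest by mean rank, with 33, 29 and 42 ends and densities of 9.41, 2.73 and 6.78. Rplp1 and Rplp2 form the dimers on it and had 11.9, 2.80 and 3.60, and 6.97, 1.40 and 4.29. Rpl12, which lies beside the base, had 9.72, 2.61 and 3.26.

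The 2 proteins that escort 5S ribosomal RNA, and that hold back the p53 ligase MDM2 when free, had a median of 3.85, 1.69 and 2.68, below that of the stalk genes. Rpl11 had 6.13 (3.51 to 9.96), 1.83 (1.09 to 2.89) and 3.14 (1.86 to 4.97). Rpl5 had 1.56 (0.574 to 3.41), 1.55 (0.981 to 2.32) and 2.21 (1.31 to 3.501). In experiment 1 the interval of Rpl5 lay wholly below that of Rpl11. Rpl5 spans 8498 bp, so its window dilutes a signal at the start more than that of a short gene, and the part of length in its value was not tested.

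The 8 genes whose proteins line or ring the exit tunnel had medians of 4.72, 1.71 and 3.14. Rpl23a, a docking site for factors that meet the new chain, was the highest by its window in each experiment with 14.8, 3.07 and 4.30. The coding gene Tlcd1 lies in the same window. Over its span alone Rpl23a had 5.98, 2.96 and 4.51, and in experiment 1 Rpl19 was higher over the span, with 9.02. Rpl39, an X-linked gene whose protein lines the tunnel, was the lowest by mean rank with 4.80, 1.36 and 1.16, though Rpl31 was lower in experiment 1 (1.75) and Rpl26 in experiment 2 (0.983).

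The 13 genes of the head of the small subunit had medians of 6.78, 1.77 and 3.44. Rps18, which touches the large subunit across the interface, was the highest by mean rank with 11.6, 3.42 and 4.49, though Rps25 (6.22) and Rps15 (4.70) were above it in experiment 3. Rps10 was the lowest by mean rank with 5.37, 1.24 and 2.74. Rps19, the gene first tied to Diamond-Blackfan anaemia, had 3.36, 1.79 and 2.49.

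Copies and like-named genes ranged from the top to the bottom of the list. Rpl36al, a copy of the X-linked Rpl36a on chromosome 12 (chr12:69182734-69184067), had 50, 34 and 29 ends and 20.8 (14.8 to 28.5), 4.67 (3.08 to 6.80) and 6.85 (4.39 to 10.2). Over its span alone it had 37.6, 6.53 and 11.2. Rpl36a (chrX:134585654-134588062) had 10, 5 and 2 ends and 3.56 (1.43 to 7.34), 0.588 (0.191 to 1.37) and 0.404 (0.0489 to 1.46). The 2 genes' intervals were apart in every experiment. Relative to the mean of its own chromosome, Rpl36a had 7.58 (3.05 to 15.6), 1.36 (0.443 to 3.19) and 1.03 (0.125 to 3.74), and Rpl36al 21.1 (14.98 to 28.8), 4.58 (3.02 to 6.66) and 6.85 (4.39 to 10.2). On that scale the intervals overlapped in experiments 1 and 2. The window of Rpl36al also holds part of Mgat2, and that of Rpl36a parts of Btk and Gla.

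Rpl3l, known as the heart and muscle form of Rpl3, was number 10 by its window, but its own span was not dense. In experiment 1 its window had 61 ends, of which 3 lay in the span, which gave 12.1 for the window and 0.952 for the span. In experiments 2 and 3 the span held 13 of 40 and 9 of 36 ends. The coding gene Msrb1 lies in the same window. Rpl3 itself had 7.70, 1.97 and 3.80.

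Other genes of this kind were dense by their windows as well. Rpl7l1, which acts in early assembly of the large subunit, had 9.41, 2.91 and 3.59, Rps27l, a target of p53, had 8.54, 2.46 and 2.72, and Rpl22l1, the paralog of Rpl22, had 6.49, 1.64 and 2.59. Rpl22 had 2.52, 0.951 and 1.43. Rps19bp1, which encodes a regulator of the deacetylase SIRT1, had 12.2, 1.90 and 2.24. Over the span alone Rps19bp1 had 4.29, 1.415 and 1.619 and Rpl7l1 5.73, 1.49 and 2.05, lower than by the window. Rps27l and Rpl22l1 were higher over the span than by the window in each experiment.

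The lowest 5 by mean rank were Rpl32l, Rpl10l, Rps23rg1, Rpl39l and Rpl36a. Rpl10l and Rpl39l, known as germ-cell forms of Rpl10 and Rpl39, had 2, 7 and 2 ends and 2, 12 and 5 ends, and densities of 0.877, 1.01 and 0.497 and of 0.544, 1.08 and 0.769. Rpl10 and Rpl39 had 10.1, 2.14 and 2.04 and 4.80, 1.36 and 1.16. Rps23rg1, a gene derived from an Rps23 transcript, had 0.243, 0.920 and 1.44, and Rpl37rt had 3.21, 0.705 and 0.727. Rpl32l had no end in experiment 1, which allows a density of up to 1.42, and 0.779 and 1.07 in the others.

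Rps27 and its retrogene Rps27rt are alike at the start of the transcript and not before it. Both stretches run from 60 bases before to 25 after the start, with the transcript in capitals:
Rps27 (chr3:90213624-90213708, minus strand): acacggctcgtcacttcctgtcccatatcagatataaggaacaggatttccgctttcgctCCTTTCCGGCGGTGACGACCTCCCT
Rps27rt (chr9:114982715-114982799, minus strand): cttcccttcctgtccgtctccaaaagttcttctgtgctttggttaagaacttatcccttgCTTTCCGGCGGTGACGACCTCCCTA
After the start 39 of the 50 bases compared are the same and the longest shared run is 38 bases, with Rps27rt starting 1 base further in. Before the start 21 of 100 bases are the same.

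Over its span Rps27 had 5, 8 and 4 ends and densities of 13.5, 7.09 and 6.09. The span of Rps27rt had no end in any experiment, but it is 374 bp long, so a count of 0 allows up to 21.2, 6.99 and 12.0. A difference between the 2 spans was therefore not detectable at this depth in experiments 1 and 3, and in experiment 2 the bound lies just below the value of Rps27. With 2.5 kb either side Rps27 had 4.86, 2.62 and 1.5, and Rps27rt 0 (a count of 0 allows up to 1.47), 0.486 and 2.5, the last from 9 ends outside the span. A tag from a stretch that 2 genes share cannot be placed with certainty, and the sources used here do not say how such tags were handled.

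Pseudogenes of the family were not dense. The 318 genes whose symbol adds -ps to a ribosomal protein name had medians of 0.483, 0.789 and 0.744 with 2.5 kb either side. Summed over the spans alone they had 0.528, 0.270 and 0.415, beside 0.973, 0.807 and 0.788 with the flanks. The spans thus held fewer ends per kb than their own surroundings. A tag from a stretch shared with another gene cannot be placed with certainty here either. Whether this lowered the span values was not tested, so they do not show that Pol II was absent.

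The 4 X-linked core genes, Rpl10, Rpl36a, Rpl39 and Rps4x, were lower than the autosomal ones against the nuclear mean and not lower against the X itself. Their medians were 4.18, 1.00 and 1.37, where the 73 autosomal core genes had 6.76, 1.79 and 3.14. The X chromosome as a whole stood at 0.470, 0.430 and 0.390 of the nuclear mean. Relative to the mean of their own chromosome, the X-linked genes had 8.89, 2.32 and 3.52, and the autosomal genes 6.18, 1.76 and 2.98.

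Core genes with another coding gene in the window were denser than those without. The 41 with one had medians of 8.24, 1.94 and 3.49, and the 36 without one 5.31, 1.55 and 2.75. Ends of the neighbour are counted in such windows. The 36 genes without a neighbour still summed to 5.38 (4.93 to 5.86), 1.58 (1.44 to 1.72) and 2.58 (2.36 to 2.82). The 30 core genes that host a snoRNA had medians of 7.05, 1.83 and 3.08, and the 47 others 6.17, 1.74 and 3.14. Summed over their windows in experiment 3, the hosts gave 3.28 (2.99 to 3.58) and the others 3.15 (2.93 to 3.38), the reverse of the medians, with overlapping intervals.

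Some genes changed place between dual and single crosslinking. Rps21, of the small subunit, had 12.2 (7.81 to 18.1) and 4.68 (2.73 to 7.50) in the dual experiments and 0.861 (0.316 to 1.88, 6 ends) in the single one. Rpl36, of the large subunit, had 13.3 (9.24 to 18.5) and 4.08 (2.59 to 6.13) in the dual experiments and 1.14 (0.570 to 2.04, 12 ends) in the single one. Rps27 went the other way by rank, but not by density in both dual experiments. It had 4.86 (2.22 to 9.22) and 1.5 (0.487 to 3.5) in the dual experiments. In the single one it had 2.62 (1.498 to 4.26, 18 ends), and its intervals overlapped. These 3 were chosen for the largest shift in rank, so the shift is a description. With 2 pools against 1 the smallest two-sided exact permutation p is 0.333, and the crosslinker cannot be told apart from the experiment.

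Other genes of the translation machinery were read by the same measure, in lists drawn up for this purpose. The 18 other genes with TOP transcripts had medians of 5.47, 1.70 and 3.33, and 14, 7 and 12 of them were at 2 or more. These are 77.8%, 38.9% and 66.7%, beside 25.2%, 4.9% and 21.1% of all protein-coding genes. Eef1a1, which brings aminoacyl-tRNA to the ribosome, had 39.3, 5.90 and 9.58, above every ribosomal protein gene in each experiment. Tpt1 had 20.3, 4.11 and 7.80, and Eif3e and Eif3h, subunits of an initiation factor, had 0.981, 1.34 and 0.793 and 1.04, 1.12 and 1.39.

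The 18 ribosome biogenesis genes had medians of 2.05, 1.16 and 1.64, and 10, 2 and 8 of them were at 2 or more. These are 55.6%, 11.1% and 44.4%, beside 25.2%, 4.9% and 21.1% of all protein-coding genes. Nop56, a scaffold of snoRNA particles, was the densest in experiment 1 with 15.4, and had 2.63 and 5.11 in the others. The 78 mitochondrial ribosomal protein genes, which build the ribosome inside mitochondria, had medians of 2.91, 1.32 and 1.91. Of these genes 54, 12 and 36 (69.2%, 15.4% and 46.2%) were at 2 or more, beside the same shares of all protein-coding genes. Their summed density of 2.86 (2.70 to 3.02), 1.32 (1.26 to 1.38) and 1.96 (1.86 to 2.06) lay below that of the cytosolic genes with intervals apart in each experiment. Their median span is 7690 bp against 3183 bp.

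Few PETs of 8 kb to 2 Mb joined these genes to other places on their chromosome. At 8 to 100 kb, 5 of 714 PETs in experiment 1, 2 of 397 in experiment 2 and 9 of 1964 in experiment 3 had an end in a ribosomal protein gene window. These 16 are 0.520% of all PETs at that distance (0.298 to 0.844%). Their ends gave relative densities of 11.2, 8.06 and 7.34 among PETs of that distance, where all coding gene windows together had 1.91, 1.42 and 1.79. The values of experiments 2 and 3 stood above those of the PETs within 8 kb (6.93 and 4.84). They rest on 2 and 9 PETs and were given no interval, so a difference from the PETs within 8 kb is not shown. The 16 PETs involved 14 genes and had a median distance of 17.4 kb, and 13 of them had a coding gene within 2.5 kb of the other end. Windows of all coding genes held 55.3%, 48.4% and 54.2% of all nuclear ends in experiments 1, 2 and 3. That share was not counted for partner ends of PETs at 8 to 100 kb.

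Rpl10a and Rpl13a were the genes with 2 such PETs. Rpl10a, of the large subunit, was joined to a point 21.6 kb away inside Tead3 in experiment 1 (chr17, positions 28328364 and 28350001) and to one 41.1 kb away near no coding gene in experiment 2. Rpl13a was joined in experiment 3 to a point 23.6 kb away near Fcgrt and to another 9.29 kb away near Flt3l (chr7, positions 45129506 and 45138794), and Flt3l already lies in the Rpl13a window. The other 12 genes had 1 PET each, such as Rplp0 with Gcn1 (8.83 kb), Rps28 with Ndufa7 (10.4 kb) and Rpl23 with Fbxo47 (80.0 kb). Gcn1 and Ndufa7 also reach into the windows of Rplp0 and Rps28. The Rps28 end of its PET itself lay within 2.5 kb of Ndufa7. No pair of places was seen in 2 experiments.

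At 100 kb to 2 Mb, 4 of 814, 2 of 2360 and 9 of 2226 PETs in experiments 1, 2 and 3 had an end in these windows. They involved 12 genes. Their ends gave relative densities of 7.87, 1.36 and 6.47, where all coding gene windows together had 1.46, 1.15 and 1.49. Rps2 had 2 PETs in experiment 1 with the region of Spsb3, 164 and 169 kb away. Their ends lay at 24720864 and 24885307, and at 24720020 and 24889468, on chromosome 17. Over both distance ranges, 24 of the 89 genes had a PET and 65 had none. The share of all coding genes with such a PET was not counted, so these counts have no background. No PET of 8 kb to 2 Mb joined one ribosomal protein gene to another. Over 2 Mb on the same chromosome, 70 of 19148, 60 of 70566 and 64 of 37894 PETs had an end in these windows. Those ends gave relative densities of 5.94, 1.36 and 2.75, where all coding gene windows together had 1.22, 1.08 and 1.23. The partners of the PETs over 2 Mb were not listed, so joins between ribosomal protein genes at that distance were not counted.

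**Figure D5:**
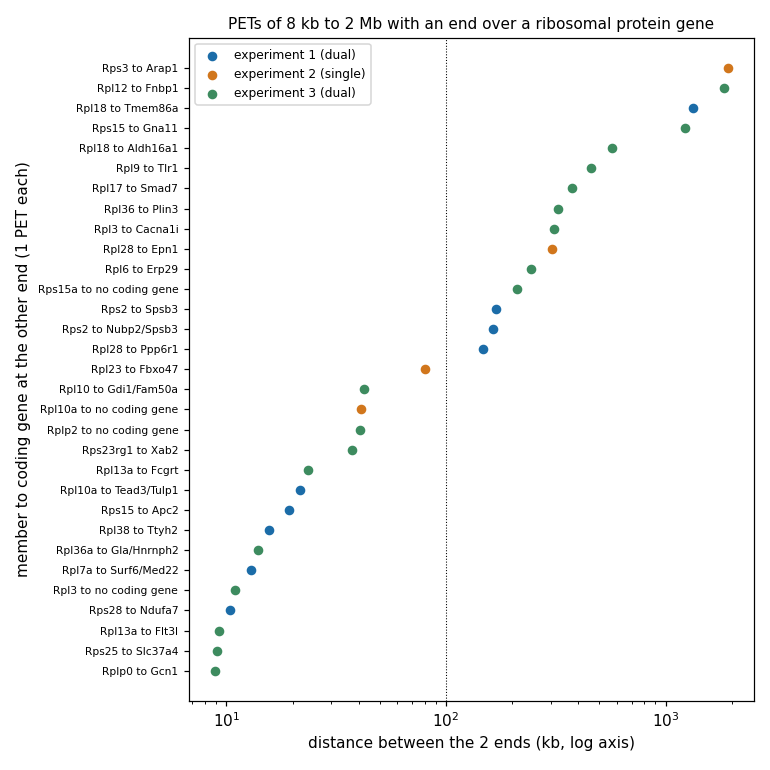
Distance between the 2 ends (x axis, kb, log axis) of the 31 PETs of 8 kb to 2 Mb with an end over a ribosomal protein gene, each row 1 PET named by the gene and the coding gene within 2.5 kb of the other end, coloured by experiment, with a dotted line at 100 kb. The 16 PETs below the line lie between 8.83 and 80.0 kb, and only Rps2 with Spsb3 appears in 2 rows for the same pair of genes.

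Between chromosomes, 1 PET joined 2 ribosomal protein genes, in experiment 3. Of the 3389 PET ends between chromosomes over these genes, the partner thus lay over another of them for 0.0590%, where 0.0738% of all such ends lay over these genes. Of the PETs that joined the mitochondrial chromosome to a nuclear one, 2 of 1953 in experiment 3 had an end over these genes, and 0 of 11 and 0 of 13 in experiments 1 and 2, which are too few to compare.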

How the data were processed

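Per the labels' protocols, Pol II ChIA-PET was done on pooled mouse livers. The authors deposited 1 table of PETs with no header, from whose values the experiment, linker and the chromosome and position of both ends were read, a unit of another kind than counts. Bowtie2 and build mm10 are named in the submitters' processing notes without their role. The sources used here give no tag length, filters or removal of duplicates. Mitochondrial PETs were set aside.

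Ends were counted over RefSeq genes (GRCm38.p6) with Python 3.11.15, pandas 2.3.3 and numpy 2.4.6. The nuclear mean is the number of nuclear ends over the length of 10-kb bins with an end in any experiment (2506 Mb). Intervals are exact Poisson intervals on the number of PETs (scipy 1.17.1), or exact binomial for shares. A count of 0 was bounded with 3 counts. Strand was taken from the RefSeq promoter table, which matched 69 of the 89 genes. Its start lay at the gene boundary for 49 of 57 core genes and over 100 bp away for 6. Counting was tested on simulated ends.

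Named genes were the 10 densest and 5 least dense by mean rank, the extremes of each role list, paralogs, genes with 2 or more PETs of 8 to 100 kb, and the 3 largest rank shifts. Others named as examples were chosen after their values were seen. The genes and lists were chosen with earlier results of these data known. No test between groups was run, since the table gives no replicates. Values of 3 single genes are not reported here; these genes are part of the counts and medians.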

Additional observations from a re-analysis of the deposited data

How the results depend on the processing

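The 9 results were computed under 57 alternatives. Of these, 23 left a value within its interval (or a count within 1.5 times) and 34 moved it. Summed relative density (6.78, 1.82 and 3.07 in experiments 1, 2 and 3) stayed above 1 in all 36 alternatives, from 1.49 to 12.9. With 1 kb either side it was 8.02, 2.18 and 3.62, over the gene span alone 1.94 in experiment 2, and with each PET counted once 6.00 and 1.66 in experiments 1 and 2. PETs within 8 kb gave 12.9, 6.93 and 4.84, and PETs between chromosomes 4.94, 1.49 and 2.74. Genes without a coding neighbour gave 5.45, 1.59 and 2.49. The linker subsets, which are not known to be libraries, gave 7.35 and 6.37 in experiment 1 and 2.55 and 1.61 in experiment 2. The span alone for genes with a neighbour, an alternative chosen after seeing the data, gave 6.10, 1.70 and 2.75. The 28 genes at 2 or more in every experiment became 54 with a threshold of 1.5, 6 with 3, 51 with 1 kb either side, and 68 without experiment 2. The 16 contacts of 8 to 100 kb became 7 over the gene span alone and 7 without experiment 3. The ratio of start to end was 6.03, 5.32 and 4.74 within 500 bp and 1.84, 1.45 and 1.28 within 2.5 kb. The cause of these shifts was not tested.

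No paired analysis was possible because the table names no library or replicate. With a median of 17 to 21 ends per core gene, differences between single genes are often within counting error, and PETs are ligation products without molecular identifiers.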
